A study of Mus musculus with 6 samples.

Results

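Six4, Cck, Ptprn and Slc6a4 are 4 genes, of the 25700 in the count tables, that are best known from neurons, neuroendocrine cells or the embryo. They were chosen by their read counts in this same experiment, near zero in control and present in heme-treated bone marrow-derived macrophages (BMDMs), with no numeric limit. Their difference between the groups is therefore given as a description, without a test. BMDMs were grown from bone marrow of C57BL/6J mice aged 8 to 10 weeks with M-CSF (100 ng/ml), the growth factor that drives macrophage differentiation. From day 3 the cultures received 300 μM heme-albumin (Heme) or albumin alone (Control), and RNA was taken on day 7. Each group had 3 libraries, each from 1 mouse, and whether the same mice gave both groups is not stated. The whole culture was sequenced without sorting. Bulk RNA cannot tell more cells with a transcript from more transcript per cell.

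Six4 encodes a homeobox transcription factor that works with Eya coactivators in the development of muscle, kidney and sensory organs. Cck encodes the precursor of cholecystokinin, a peptide of gut endocrine cells and brain neurons that is cut and sulfated during secretion. Ptprn encodes a receptor-type tyrosine phosphatase without catalytic activity in the membrane of dense core vesicles, which store peptide hormones and amines, and is an autoantigen of pancreatic islets. Slc6a4 encodes the serotonin transporter, which takes serotonin back into neurons and into platelets and is the target of a widely used class of antidepressants.

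The libraries held 27201038 to 32994595 counts. Levels are CPM, meaning a gene's counts relative to the TMM-adjusted size of its library, and a count of 0 in 1 Control library allows a level of up to 0.0829 to 0.0917 CPM (3 counts, for counting error only). Over all genes, edgeR's quasi-likelihood test called 3938 of 12433 tested genes higher (31.7%) and 3831 lower (30.8%) in Heme at a Benjamini-Hochberg adjusted p under 0.05. When scaled by library size alone, 2580 were higher and 5814 lower, and the median log2 fold change moved from 0.00 to -0.22. Of 7 macrophage markers, all tested, 5 fell and 1 rose (median log2 fold change -0.60). Their summed level was 31443 to 37292 CPM in Control and 36138 to 39387 CPM in Heme, most of it from the lysozyme gene Lyz2. Lyz2 missed the threshold (log2 fold change 0.22, adjusted p = 0.122), and the sum does not show the fall of the other markers.

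The sequences before the start sites are shown because the 4 genes were high in the same libraries. Each stretch comes from RefSeq (GRCm38.p6), runs 5′ to 3′ on the gene's own strand, ends at or before the start and leaves out annotated exons. The Ptprn stretch lies inside the annotated gene, because its RefSeq start is 294 bases inward from the annotated 5′ end. Capitals mark an E-box (CACGTG), a GC box (GGGCGG or its reverse complement) and the heptamer TGACGCA or its reverse complement.
Six4, chr12:73113457-73113675, minus strand: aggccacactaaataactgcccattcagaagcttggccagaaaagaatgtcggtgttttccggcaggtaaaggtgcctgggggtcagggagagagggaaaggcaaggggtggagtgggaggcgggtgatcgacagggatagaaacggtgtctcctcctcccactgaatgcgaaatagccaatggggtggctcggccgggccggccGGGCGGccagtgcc
Cck, chr9:121495695-121495944, minus strand: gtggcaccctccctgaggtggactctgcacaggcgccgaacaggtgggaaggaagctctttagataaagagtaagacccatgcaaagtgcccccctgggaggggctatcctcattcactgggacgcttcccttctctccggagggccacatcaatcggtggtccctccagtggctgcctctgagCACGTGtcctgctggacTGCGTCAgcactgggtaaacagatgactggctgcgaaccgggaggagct
Ptprn, chr1:75264214-75264433, minus strand: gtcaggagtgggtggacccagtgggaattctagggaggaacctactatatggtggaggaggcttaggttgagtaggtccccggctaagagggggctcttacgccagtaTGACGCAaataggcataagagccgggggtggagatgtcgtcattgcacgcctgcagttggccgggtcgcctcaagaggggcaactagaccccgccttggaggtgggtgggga
Slc6a4, chr11:76998347-76998596, plus strand: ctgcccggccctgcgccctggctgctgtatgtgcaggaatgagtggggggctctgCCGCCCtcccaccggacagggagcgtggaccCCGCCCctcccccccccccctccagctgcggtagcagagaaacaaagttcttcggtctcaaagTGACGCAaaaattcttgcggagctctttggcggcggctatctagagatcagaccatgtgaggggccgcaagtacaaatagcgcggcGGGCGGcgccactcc

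TGACGCA, searched on both strands, stood in the windows of Cck, Ptprn and Slc6a4 and not in that of Six4. It lay 49 to 43 bases before the start in Cck (as TGCGTCA), 117 to 111 bases in Ptprn and 101 to 95 bases in Slc6a4. The position in Ptprn is counted from the RefSeq start and lies inside the annotated gene. Of all 32851 RefSeq windows of 250 bases before and 50 after a start, 2.12% held it. This heptamer, which is the cyclic AMP response element (CRE) without the T after TGACG, was picked after the sequences were seen. The motifs searched from a list were the CRE (TGACGTCA, 1.79% of windows), the AP-1 site (TGANTCA, 7.81%), the core of the antioxidant response element (TGACNNNGC, 12.4%), the E-box (7.15%), the TATA box (TATAAA, 13.6%) and the GC box (35.7%). Of these, the E-box was found in Cck, 66 to 61 bases before the start, and GC boxes in Six4 and Slc6a4 (3 in the latter), while the CRE, AP-1, antioxidant and TATA letters were found in none of the 4 genes. A second RefSeq window of Ptprn held a GC box and no heptamer, and the second of Six4 repeated its GC box. A match describes letters and no binding was measured.

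Six4 had no count in any Control library and 783, 540 and 641 counts in the Heme libraries. These are 26.4, 21.3 and 23.5 CPM (mean 23.7 ± 2.53; SD, n = 3). Against a floor of 3 counts over the Control group, its level was at least 815-fold higher in Heme. Six4 (ENSMUSG00000034460) lies on chromosome 12 of GRCm38, from 73099609 to 73113456, on the minus strand.

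Cck was likewise at 0 in all Control libraries and had 338, 288 and 343 counts in Heme, or 11.4, 11.4 and 12.6 CPM (mean 11.8 ± 0.694; SD, n = 3). Its level was at least 402-fold higher against the same floor. The gene (ENSMUSG00000032532) lies on chromosome 9, from 121489824 to 121495694, on the minus strand. Among the 1055 genes with no Control count and at least 1 Heme count, Six4 had the most Heme counts, 1964, and Cck the next most, 969. The third was Elane, the neutrophil elastase gene, with 316. These bounds depend on the number of Control libraries that set the floor: without 1 of them they ran from 525-fold to 554-fold for Six4 and from 259-fold to 273-fold for Cck.

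Ptprn had 4, 4 and 1 counts in Control and 1124, 917 and 991 in Heme. Its level went from 0.111, 0.119 and 0.0306 CPM to 37.8, 36.2 and 36.4 CPM (means 0.0868 ± 0.0489 and 36.8 ± 0.905; SD, n = 3). It was the highest of the 4 genes in CPM and the one with the least spread among Heme libraries, a coefficient of variation of 2.46%. The fitted log2 fold change was 8.65 (standard error 0.18), and the ratio of the group totals was 419 with a 95% exact binomial interval of 221 to 918 for counting error. Ptprn (ENSMUSG00000026204) lies on chromosome 1, from 75247027 to 75264502, on the minus strand. It shares 189 exonic bases with the antisense gene Gm28294, which was not analysed here, and the counting's strand setting is unknown.

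Slc6a4 had 6, 2 and 5 counts in Control, the highest sum of the 4 genes, and 671, 440 and 605 in Heme. Its level was 0.166, 0.0597 and 0.153 CPM in Control and 22.6, 17.4 and 22.2 CPM in Heme (means 0.126 ± 0.0579 and 20.7 ± 2.90; SD, n = 3). The fitted log2 fold change was 7.31 (standard error 0.24), and the ratio of totals was 164 (95% exact binomial interval 95.8 to 309). Slc6a4 (ENSMUSG00000020838) lies on chromosome 11, from 76998603 to 77032340, on the plus strand, and an annotated antisense gene, Gm12343, overlaps it without sharing an exonic base.

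**Figure D1:**
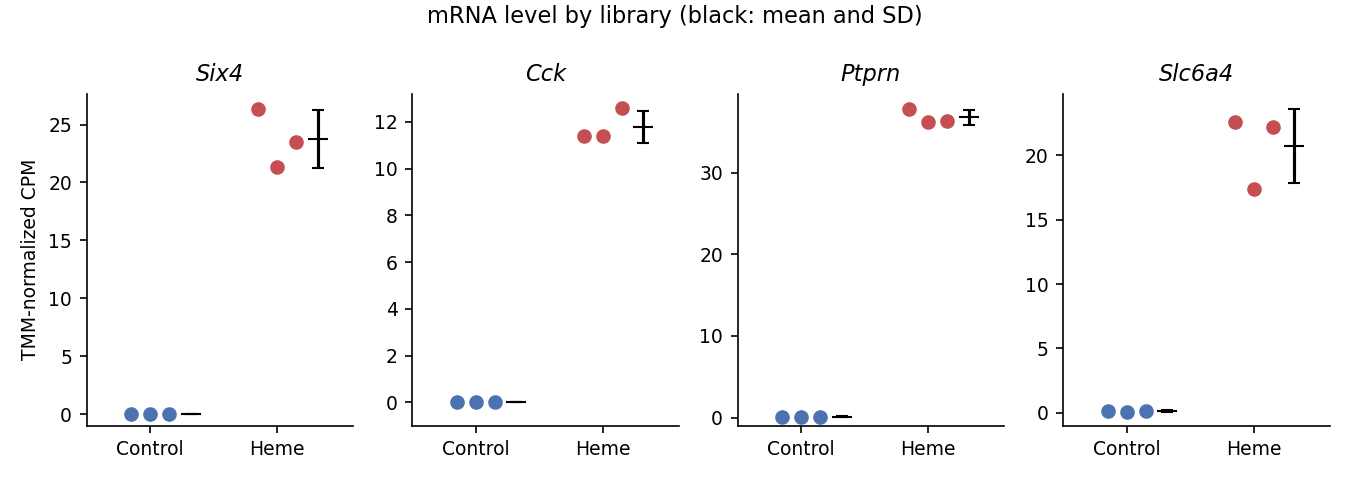
TMM-normalized CPM (linear axis) of the 4 genes in 3 Control (blue) and 3 Heme (red) libraries; black marks are group means with SD. Every Heme library lies far above every Control library, and the largest Control value is 0.166 CPM, in Slc6a4.

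For all 4 genes the Heme libraries lay above the Control libraries without overlap, as the choice required, and 34.8% of all tested genes showed such a separation in this direction. Within Heme, Heme 2 was the lowest library for each of the 4 genes, at 0.899 of the Heme mean for Six4, 0.966 for Cck, 0.984 for Ptprn and 0.839 for Slc6a4. For Cck and Ptprn the next library, at 0.966 and 0.988, was almost level with it. Heme 1 was the highest for Six4, Ptprn and Slc6a4, and Heme 3 for Cck.

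Per kilobase of exonic sequence, the order of the 4 genes changed. Cck, with 1305 exonic bases, stood at 9.03 ± 0.532 CPM per kb in Heme and Ptprn, with 4249, at 8.66 ± 0.213 CPM per kb (SD, n = 3). The ranges of this pair overlapped, 8.72 to 9.64 and 8.52 to 8.91 CPM per kb. Slc6a4 was lower at 4.57 ± 0.640 CPM per kb (4531 exonic bases) and Six4 the lowest at 2.19 ± 0.233 CPM per kb (10855 exonic bases), each outside the range of its neighbour in the order. Of the tested genes, 65.8% had a Heme level per kb under that of Cck, 64.9% under that of Ptprn, 48.7% under that of Slc6a4 and 31.9% under that of Six4.

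**Figure D2:**
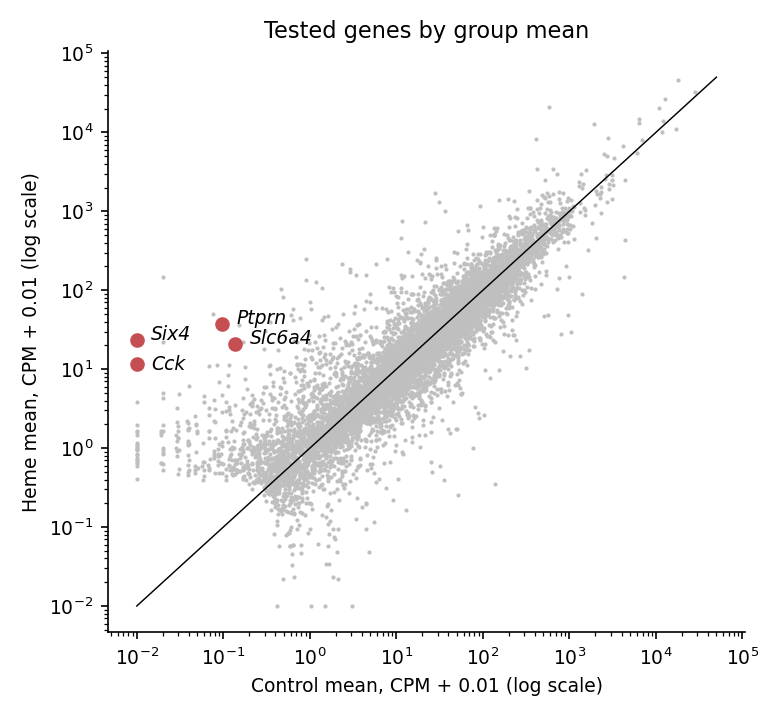
Mean CPM plus 0.01 in Heme against Control for the tested genes (grey; log axes), with the 4 genes in red and a line of equality. Six4 and Cck sit at the left edge because they had no Control count; Ptprn and Slc6a4 had Control means of 0.0868 and 0.126 CPM.

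Few genes combined such low Control counts with such Heme counts. At most 13 counts over the Control group (the value of Slc6a4) and at least 288 in every Heme library (the lowest value of Cck) were found in 8 genes, of 12862 at or under the Control limit. The 4 others were Mt3, a metallothionein first described in brain, Spint1, a membrane inhibitor of serine proteases, Rnf183, a ubiquitin ligase gene, and Mpo, the myeloperoxidase gene of neutrophil granules. Their Heme means were 147 ± 36.1, 50.5 ± 4.25, 38.2 ± 4.09 and 22.3 ± 7.91 CPM (SD, n = 3). The reverse limits were met by 1 gene, Cmah, which encodes the hydroxylase of sialic acid and had 495, 454 and 377 counts in Control and 6, 4 and 3 in Heme. These limits were set from the members after their values were seen, so both counts are descriptions.

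Profiles over the 6 libraries were compared by the Euclidean distance of log2(CPM + 0.1). Mpo was nearest to Six4 (distance 1.08), followed by Rnf183 (2.16) and the cytokine gene Clcf1 (2.31). Clcf1 was nearest to Cck (1.33), followed by Acsbg1, an acyl-CoA synthetase gene (1.62), and Mpo (1.69). Spint1 was nearest to Ptprn (1.11), followed by Arnt2, a partner of bHLH-PAS transcription factors (1.15), and Rnf183 (1.41). Nearest to Slc6a4 was Hsd11b1, whose enzyme regenerates active glucocorticoid (0.944), before Arnt2 (1.52) and the alcohol dehydrogenase gene Adh7 (1.69). Among the 4 genes themselves, the distances ran from 1.75 (Six4 and Cck) to 3.26 (Cck and Ptprn). Likeness here is of levels in 6 libraries of 2 groups, and many genes share the step between the groups.

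Genes that work with the 4 members were taken from 10 lists, and outside the members they hold 142 genes. Of these, 47 had no count in any library and 63 were tested, of which 26 rose, 15 fell and 22 missed the threshold. Their median log2 fold change was 0.10, beside 0.00 for all tested genes. Over all tested genes 31.7% rose and 30.8% fell, and these shares stand beside the counts in each list below as a description only. The lists were chosen with earlier results of these data known. Some of their genes, among them Hid1 and Slc6a19, met the minimum count filter (10 counts) only through the Heme libraries, which favours a call as higher. When scaled by library size alone 20 rose and 25 fell.

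Of 16 other genes of the Six4 family and of the Eya, Dach and Pax families, 5 were tested, of which 3 rose and 2 fell (median log2 fold change 0.31). Dach1, the gene of a nuclear cofactor of the Eya proteins, rose from a mean of 1.24 ± 0.311 (SD, n = 3) to 10.7 ± 0.596 CPM (log2 change 3.09, standard error 0.17, adjusted p = 4.15e-07). The coactivator genes Eya1 and Eya4 were present in Control and fell, by log2 values of -0.54 and -0.84 (adjusted p = 7.69e-05 and 0.000265). Six2, Six3, Six6, Eya2, Pax2, Pax3 and Pax7 had no count in any library.

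Cck was not the only neuropeptide gene with more mRNA. Of 17 other precursor genes, 10 had no count in any library, and of the 3 tested 2 rose and 1 fell. Penk, the proenkephalin gene, rose from 4.89 ± 0.381 to 88.5 ± 18.6 CPM and Npy, the neuropeptide Y gene, from 25.6 ± 4.90 to 152 ± 30.0 CPM (SD, n = 3). On the log2 scale they changed by 4.17 and 2.57 (adjusted p = 4.19e-08 and 1.52e-06). Both had clear Control levels, unlike Cck. Nmb, the neuromedin B gene, fell (-0.63, adjusted p = 0.0304), but did not pass without Control 1, Control 2 or any 1 of the Heme libraries (adjusted p from 0.0527 to 0.103) or with DESeq2 (0.0798). Gast, the gene of the related hormone gastrin, had a single count in the 6 libraries.

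Of 15 genes of prohormone processing, 9 were tested, of which 3 rose, 2 fell and 4 missed the threshold (median log2 fold change 0.09). Ctsl, the gene of cathepsin L, a lysosomal protease that can also cut prohormones, rose from a mean of 641 ± 56.6 (SD, n = 3) to 3467 ± 120 CPM (log2 change 2.44, adjusted p = 3.7e-08). Tpst2, the gene of a tyrosine sulfotransferase, rose (0.58, adjusted p = 8.39e-05), and the convertase genes Furin and Pcsk7 fell (-0.70 and -0.58, adjusted p = 0.000119 and 0.000359). Pcsk1, the gene of the main convertase of neuroendocrine granules, was not tested, with 31, 4 and 25 counts in Control and 0, 2 and 6 in Heme, and its partner Pcsk2 had none. Cckar and Cckbr, the receptor genes of cholecystokinin, had no count in any library, which allows up to 0.0829 to 0.119 CPM per library.

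Ptprn was the only member of its small family with more than a trace of mRNA: Ptprn2, its paralog, had 2 counts in the 6 libraries and Resp18, a related gene beside it on the chromosome, none. Of 18 other genes of dense core vesicles and exocytosis, 7 were tested, of which 2 rose, 1 fell and 4 missed the threshold (median log2 fold change -0.00). Hid1, a gene of dense core vesicle formation, rose from a mean of 0.216 ± 0.0263 (SD, n = 3) to 4.20 ± 0.764 CPM (log2 change 4.27, standard error 0.25, adjusted p = 6.52e-07). Cadps, a gene of vesicle priming, rose (1.07, adjusted p = 0.0332) and Rab3a, a gene of a vesicle GTPase, fell (-0.51, adjusted p = 0.0197). Cadps did not pass without Control 2, Control 3 or any 1 of the Heme libraries (adjusted p from 0.0541 to 0.105) or when scaled by library size alone (adjusted p = 0.0782), and Rab3a not without Control 2 or Heme 2 (0.0571 and 0.0737). Chga and Scg2, genes of the granins that fill these vesicles, had no count in any library. Vgf, another granin family gene that was not tested, had no Control count and 21, 4 and 7 counts in Heme.

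Of 18 other receptor-type tyrosine phosphatase genes, 7 were tested, of which 3 rose, 1 fell and 3 missed the threshold (median log2 fold change 0.51). Ptpre rose (1.59, adjusted p = 8.82e-08), as did Ptprc, the gene of the leukocyte antigen CD45 (0.58, adjusted p = 0.000146), and Ptprs (0.51, adjusted p = 0.000252), while Ptpro fell (-0.59, adjusted p = 0.000146). These 4 genes had Control means of 62.0 CPM or more, unlike Ptprn.

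Of 13 genes of serotonin synthesis, storage and breakdown, 8 were tested, of which 4 rose, none fell and 4 missed the threshold (median log2 fold change 0.45). Maoa, the gene of monoamine oxidase A, rose from 67.4 ± 5.88 to 584 ± 56.7 CPM and Slc18a1, the gene of a vesicular monoamine transporter, from 2.79 ± 0.621 to 20.1 ± 1.12 CPM (SD, n = 3). On the log2 scale they changed by 3.12 and 2.85 (adjusted p = 1.56e-08 and 2.79e-07). Gch1, which starts the synthesis of the hydroxylase cofactor tetrahydrobiopterin, rose (0.93, adjusted p = 3.17e-05). Maob rose as well (0.75, adjusted p = 0.0225), but not without Control 1, Control 3, Heme 1 or Heme 2 (adjusted p from 0.054 to 0.0918) with library sizes alone (0.0767) or with DESeq2 (0.0983). Slc18a2, the gene of the other vesicular monoamine transporter, had a log2 fold change of -0.01 (adjusted p = 0.974). Tph1, the gene of the tryptophan hydroxylase outside the brain, had no count in any library, and Tph2 and Ddc, genes of the brain hydroxylase and of the decarboxylase, had at most 4 and 6 counts in a library.

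Of 11 serotonin receptor genes, 7 had no count in any library and 2 were tested. Htr2a rose from 4.01 ± 1.38 to 14.4 ± 2.03 CPM and Htr2b fell from 5.80 ± 0.846 to 1.26 ± 0.244 CPM (SD, n = 3). On the log2 scale they changed by 1.84 and -2.19 (adjusted p = 8.75e-05 and 8.63e-06). Htr1f, a receptor gene outside the list that was noticed after its values were seen and was not tested, had no Control count and 18, 8 and 19 counts in Heme, at least 18.7-fold higher.

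Within the SLC6 family of sodium-coupled transporters, 8 of the 19 other genes were tested, of which 6 rose, 1 fell and 1 missed the threshold (median log2 fold change 1.36). Slc6a19, a neutral amino acid transporter gene of gut and kidney, rose from a mean of 0.324 ± 0.0962 (SD, n = 3) to 11.1 ± 1.16 CPM (log2 change 5.09, adjusted p = 5.45e-08). Slc6a9, a glycine transporter gene, rose from a mean of 19.0 ± 3.75 (SD, n = 3) to 220 ± 13.4 CPM (log2 change 3.54, adjusted p = 3.7e-08). Slc6a13 and Slc6a12, genes of transporters for GABA and betaine, changed by log2 values of 1.61 and 1.38 (adjusted p = 0.000173 and 0.00428). The taurine transporter gene Slc6a6 fell (-0.55, adjusted p = 0.00029). Slc6a2 and Slc6a3, the closest relatives of Slc6a4 for noradrenaline and dopamine, had no count and 2 counts in all.

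REST, a repressor that keeps neuronal genes silent outside neurons, acts through corepressor complexes. All 14 genes of this list were tested, of which 6 fell, 2 rose and 6 missed the threshold, with a median log2 fold change of -0.09. Of all tested genes, 30.8% fell and 31.7% rose, and a loss of repression was not tested. Rest itself rose by 0.34 on the log2 scale (adjusted p = 0.00335), but did not pass with library sizes alone (0.12, adjusted p = 0.19). Ehmt2, a histone methyltransferase gene, and Sin3a, a corepressor gene, fell (-0.55 and -0.41, adjusted p = 6.67e-05 and 0.00053). Rcor2, another corepressor gene, had a log2 fold change of -1.15 from 0.945 CPM in Control (adjusted p = 0.0124, and 0.053 without Heme 3). Phf21a fell (-0.40, adjusted p = 0.0307), but not without Control 2, Control 3 or any 1 of the Heme libraries (adjusted p from 0.0632 to 0.1).

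**Figure D3:**
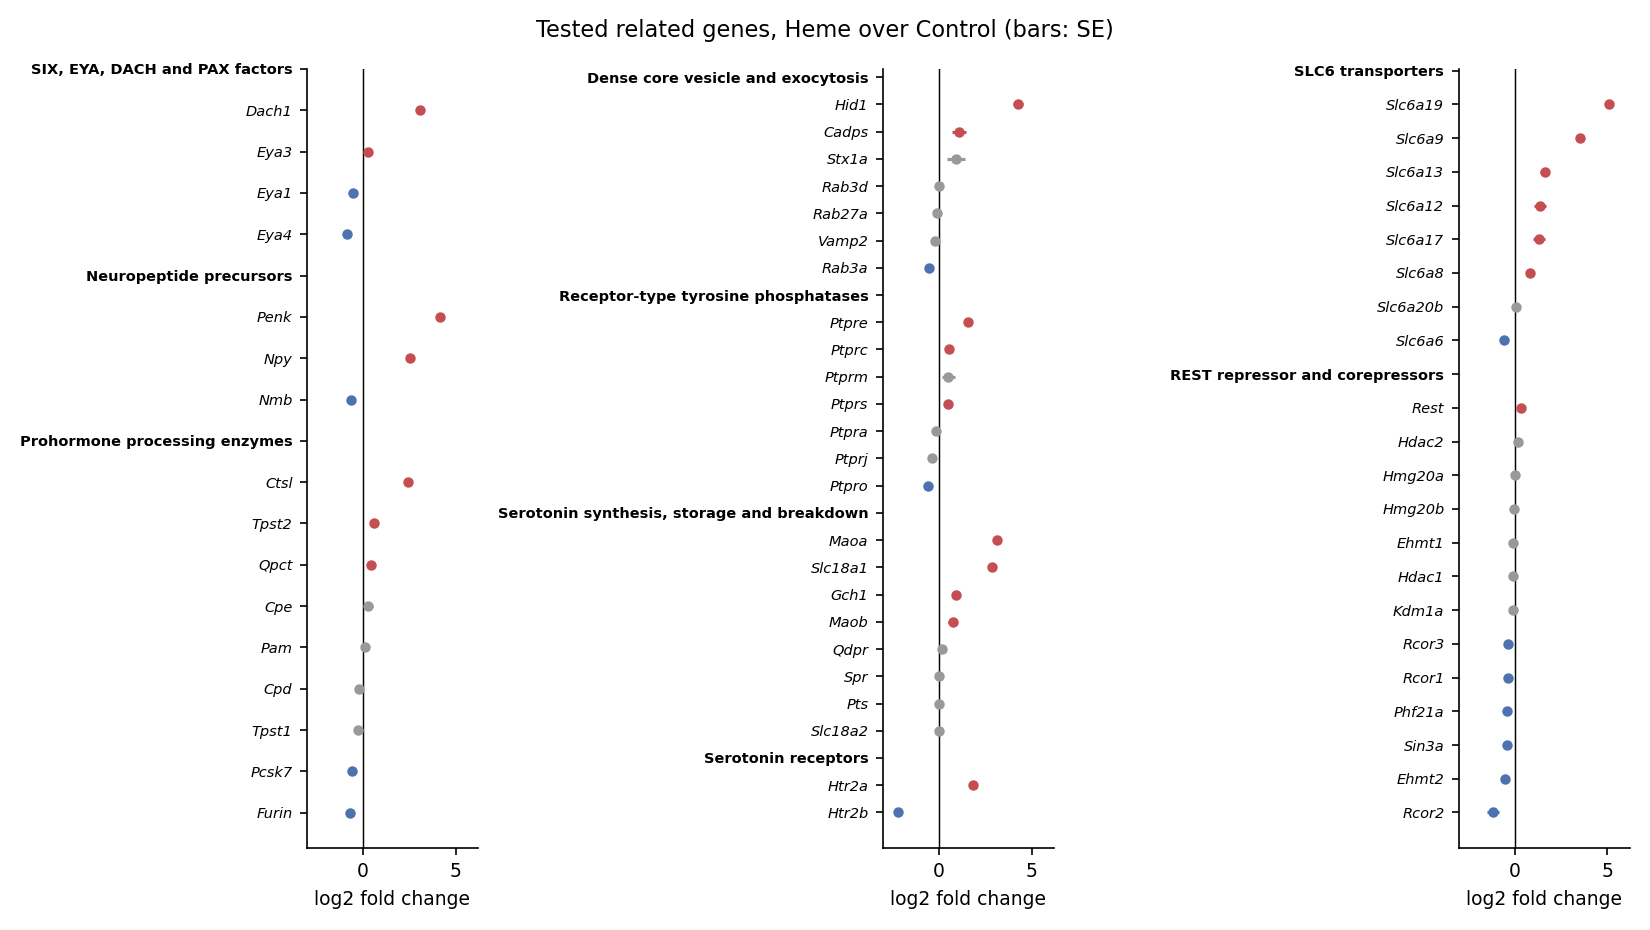
Log2 fold change (Heme over Control) with standard error of the tested genes related to the 4 members, by list; red points passed the test as higher, blue as lower and grey did not pass. Dach1, Penk, Hid1, Maoa, Slc6a19 and Slc6a9 lie furthest to the right, while the REST list stays between -1.15 and 0.34.

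The genes beside the members on the chromosomes mostly had mRNA in both groups. Of the 5 nearest protein-coding genes on each side of each member, 40 in all, 29 were tested, of which 17 rose (58.6%, beside 31.7% of all tested genes), 3 fell and 9 missed the threshold, with a median log2 fold change of 0.21. When scaled by library size alone, 8 rose and 8 fell, with a median of -0.0079 beside -0.22 for all tested genes. The nearest gene after Six4 was Mnat1, a gene of the CDK-activating kinase, 10.3 kb away (log2 fold change 0.92, adjusted p = 4.28e-05). The nearest genes of Cck were Trak1, 14.9 kb away (-0.03, adjusted p = 0.704), and the lysozyme-like gene Lyzl4, 82.1 kb away (1.99, adjusted p = 7.72e-05). Dnajb2, a chaperone gene 1.33 kb from Ptprn, had a log2 fold change of 0.18 (adjusted p = 0.191), and Resp18, 7.70 kb away on the other side, had no count. Beside Slc6a4, the protease gene Blmh, 11.2 kb away, rose (0.78, adjusted p = 4.71e-06). Nsrp1, 12.0 kb away on the other side, rose (0.22, adjusted p = 0.0253), but not without Control 1, Heme 1 or Heme 3 (adjusted p from 0.0616 to 0.0897), with DESeq2 (0.0545) or with library sizes alone (0.989).

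**Figure D4:**
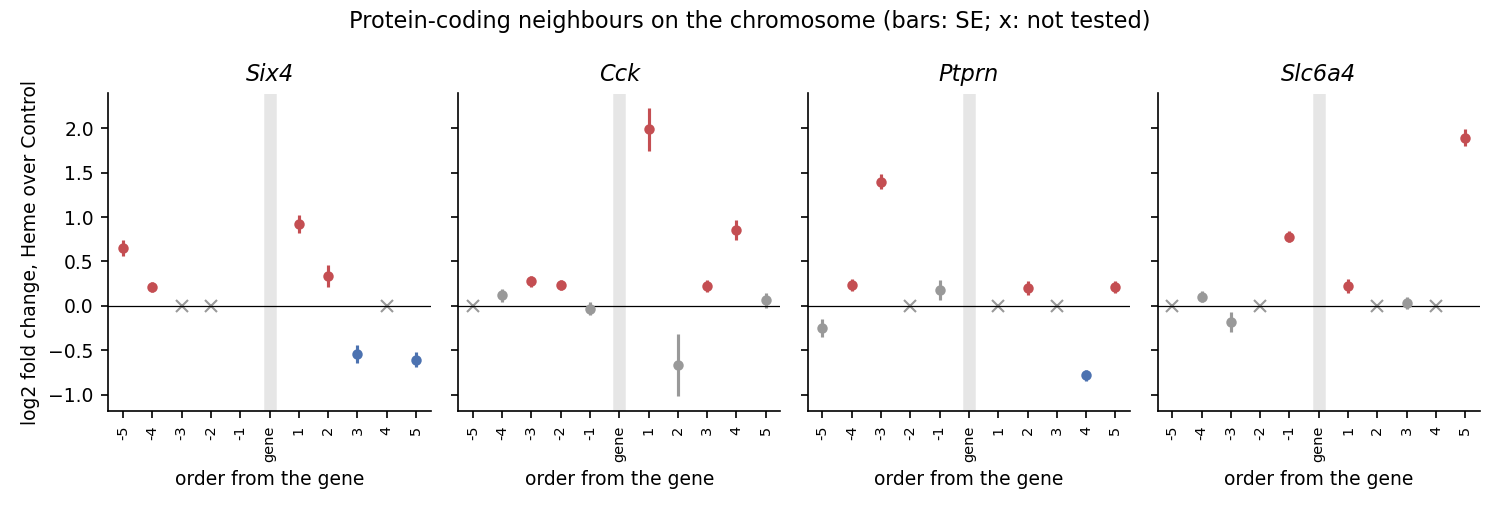
Log2 fold change (Heme over Control, with standard error) of protein-coding genes among the 5 on each side of each of the 4 genes, in order along the chromosome; colours as for the related genes and crosses mark genes that were not tested. The tested neighbours shown lie between -0.78 and 1.99.

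Many markers of neurons, neuroendocrine cells and muscle precursors had no count in any library, while some neuron markers did. Of 20 neuron markers, 9 had no count in any library, among them Rbfox3, Syt1, Snap25, Dcx and Th, and 5 were tested. The neurofilament genes Nefl and Nefm and the tubulin gene Tubb3 had no Control count and were at least 50.6-fold, 34.0-fold and 23.2-fold higher in Heme. They met the minimum count filter only through Heme and could only be called higher, so no p-value is given for them. Their Heme means were 1.46 ± 0.715, 0.972 ± 0.530 and 0.694 ± 0.255 CPM (SD, n = 3). Syp, a synaptic vesicle gene, fell (-0.71, adjusted p = 0.00861). The summed level of the neuron markers was 4.86 to 6.77 CPM in Control and 5.50 to 8.28 CPM in Heme. The median log2 fold change of the 5 tested was 7.41 as fitted and 4.54 with the genes at 0 in Control set to their lower bounds. Both medians are the value of Tubb3 and carry the same limit. Of 10 neuroendocrine factors and granins, 7 had no count, among them Neurod1, Neurog3 and Isl1, and none was tested. Of 6 muscle precursor markers, Myog had a single count and the 5 others none. The part of neurons, neuroendocrine cells or muscle precursors in the levels of the 4 members was not tested.

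Mast cells and platelets also carry the serotonin transporter. Of 10 mast cell and basophil markers, 3 of the 4 tested rose (Mcpt8, Gata2 and Hdc), and the summed level went from 0.627 to 1.38 CPM in Control to 2.90 to 4.51 CPM in Heme. These 3 met the minimum count filter only through Heme, which favours a call as higher. The other tested marker went the other way, with every Heme library under every Control library, but missed the threshold (log2 fold change -0.78, adjusted p = 0.0855). Mcpt4, Tpsb2 and Tpsab1, proteases of mast cell granules, had no count in any library. Of 10 megakaryocyte and platelet markers, 3 of the 6 tested rose, and the summed level went from 110 to 118 CPM to 273 to 310 CPM. Most of that, and most of the rise in the sum, came from Pf4, at 32.5 ± 8.79 CPM in Control and 203 ± 23.6 CPM in Heme (SD, n = 3). The 3 tested markers that did not rise missed the threshold, with log2 fold changes from -0.04 to 0.62. The 2 other risers were Ppbp, a platelet chemokine gene, from 0.107 to 3.26 CPM (log2 change 4.87, adjusted p = 2.12e-06), and the integrin gene Itga2b, from 0.249 to 0.789 CPM (1.66, adjusted p = 0.00649). Both met the minimum count filter only through Heme. Gp9 had 2 counts, both in Control, and Gp6 at most 3 counts in a library. The part of such cells in the levels of Slc6a4 was not tested. Glial, stromal and epithelial markers gave 1 riser each for the last 2, Pdgfrb (1.87) and Cdh1 (4.19), and none for glia. Pdgfrb and Cdh1 also met the filter only through Heme. Sox10, Dcn, Lum, Krt8 and Krt19 had no count.

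Markers of granulocyte precursors, which arise in bone marrow, also moved with the groups. This list and the erythroid one were added after the values of Mpo and Elane were seen. Of 10 such markers, 8 were tested and all 8 rose, and the summed level went from 3.37 to 4.65 CPM in Control to 42.4 to 77.7 CPM in Heme. Mpo, Elane, Ms4a3, Ctsg and Prtn3 had at most 9 counts in a Control library. They met the minimum count filter only through Heme, which favours a call as higher, so the count of risers is a description. Elane had no Control count and 81, 94 and 141 counts in Heme, and Ms4a3 none and 19, 25 and 33. Ctsg and Prtn3, further protease genes of neutrophil granules, rose by 4.94 and 4.47 on the log2 scale (adjusted p = 3.65e-06 and 3.11e-06). In Heme 1, Heme 2 and Heme 3, Mpo stood at 13.7, 24.2 and 29.2 CPM and Elane at 2.73, 3.71 and 5.17 CPM. Of 10 erythroid markers, 2 were tested, of which 1 rose and 1 fell, and their summed level was 0.884 to 1.35 CPM in Control and 1.19 to 1.78 CPM in Heme. The part of such cells in the levels of the 4 members was not tested.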

How the data were processed

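RNA of 3 Control and 3 Heme BMDM cultures was sequenced from stranded TruSeq libraries. Per the submitters' processing notes and the study's methods, the authors aligned reads with STAR 2.7.0 to GRCm38.p5 and counted them per gene with featureCounts; the deposited values are raw counts. Annotation release and strand setting were not given in the sources used here. Counts were joined to GENCODE M21 by gene ID for symbols, positions and exonic length, and 113 of 25700 genes had no symbol. Genes were kept by edgeR's filterByExpr (minimum count 10), scaled by TMM and tested with the edgeR 4.0.16 quasi-likelihood test (R 4.3.3), Heme against Control, with Benjamini-Hochberg adjustment at 0.05. The script was tested on simulated data. CPM values use TMM-scaled library sizes; lower bounds use 3 counts over the Control group. The p-values weigh the difference between the groups against the spread among libraries within a group, for these 6 libraries only.

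The 4 genes and all gene lists were chosen with earlier results of these data known. Named genes are the members, up to 4 called genes of each list with the largest change and up to 2 in the opposite direction, the nearest neighbour on each side and the 3 nearest profiles; genes named at or near 0, the granulocyte and erythroid lists, Ppbp, Itga2b, Pf4, Htr1f, Slc18a2, Mt3, Spint1, Rnf183, Mpo, Cmah and the heptamer were chosen after their values or letters were seen. Deviations from the group means correlated at -0.0998, -0.142 and -0.0683 between Control and Heme libraries of the same number. The replicate numbers were not used as pairs in the main fit, and these values cannot tell whether mice were shared. Alternatives were other scalings, filters, DESeq2 1.42.0, a larger prior count, a replicate block and leaving out each library. No library was left out of the main results. Some genes of the lists are counted in the totals but not reported here by name.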

Additional observations from a re-analysis of the deposited data

How the results depend on the processing

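When scaled by library size alone, 2580 of the tested genes were higher and 5814 lower in Heme, 25 related genes fell, 8 neighbours rose and 8 fell, the Heme means of Cck and Ptprn were 10.9 and 34.1 CPM, the bounds of Six4 and Cck were 698-fold and 344-fold, and Dnajb2 turned to -0.041 (log2). Leaving out 1 library gave 3457 to 4071 higher and 3253 to 3968 lower genes, 22 to 27 and 13 to 16 related genes, bounds of 525-fold to 854-fold for Six4 and 259-fold to 410-fold for Cck, and Heme means of 22.8 to 25.3 (Six4), 11.5 to 12.2 (Cck), 36.1 to 37.7 (Ptprn) and 20.1 to 22.7 CPM (Slc6a4). Fitted log2 fold changes ran from 8.27 to 8.90 for Ptprn and from 6.98 to 7.56 for Slc6a4. Without a Control library the floor of 3 counts rests on fewer libraries, which lowers the bounds by construction; the alternatives for the bounds were chosen after seeing the data. Leaving out 1 library moved Trak1 between -0.085 and 0.026 (log2), above 0 without Control 3. A prior count of 2 gave 7.91 for Ptprn and 6.76 for Slc6a4. The replicate block gave 3671 higher and 3493 lower genes, with 24 and 15 related genes, 8.65 for Ptprn and 7.31 for Slc6a4; under it Nmb, Maob and Nsrp1 did not pass (adjusted p = 0.0654, 0.0518 and 0.0515). DESeq2 gave 3877 higher and 3740 lower genes. Other causes of these changes were not tested. Counts of 0 to 6 per Control library limit the precision of every fold change of the members.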
